A study of Homo sapiens with 12 samples.

Results

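The glycolysis and hypoxia genes described here are 39 human genes that carry glucose through glycolysis or answer to low oxygen. They were followed on 12 Illumina BeadChip arrays of K562, a human erythroleukemia cell line that carries the BCR-ABL1 fusion. Members were taken by gene symbol: every probe annotated to a listed gene was used, which gave 66 of the 47231 probes on the array. These 66 probes stood for 36 of the 39 genes, and SLC16A1, SLC16A3 and CA9 were not analysed here. The filter on dim probes kept 61 of the 66 probes and at least 1 for each of the 36 genes, and each gene was counted by its brightest tested probe. Of HK1, ALDOA, VEGFA, P4HA1 and P4HA2, 1 probe each was too dim to be tested.

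The series set 4 groups of 3 arrays against each other: AE9a K562 cells given an siRNA against PRMT1 (siPRMT1), AE9a cells given control siRNA, wild type K562 cells given siPRMT1, and wild type cells given control siRNA. The AML1-ETO oncoprotein arises in some acute myeloid leukemias when RUNX1 is joined to RUNX1T1, and alternative splicing of its message yields the truncated AE9a. PRMT1 methylates arginines of histones and other proteins. All 4 groups received 3 µg of siRNA by nucleofection, were cultured in serum-supplemented RPMI medium and were harvested 24 h later. What drives AE9a expression, whether the AE9a line is 1 clone and whether the 3 arrays of a group are separate cultures are not given in the sources used here, so p-values reflect only how far these samples scatter, and that scatter may be technical.

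Glycolysis breaks glucose down to pyruvate, with hexokinase, phosphofructokinase and pyruvate kinase as its regulated steps, and pyruvate is then either reduced to lactate or passed to the mitochondria. When oxygen is short, the prolyl hydroxylases encoded by EGLN1 and EGLN3 no longer mark the alpha subunit of hypoxia-inducible factor (HIF) for destruction. HIF then raises transcription of glucose transporters, most glycolytic enzymes, the kinases that hold pyruvate back from mitochondria, and genes for vessel growth and mitochondrial turnover. Rapidly growing leukemia cell lines such as K562 run glycolysis to lactate in the presence of oxygen too. No oxygen level is named in the labels.

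Median raw intensity ran from 60.5 to 74.3 across the 12 arrays, and the 95th percentile of 455 probes of olfactory receptor genes, used as a stand-in for background, from 67.6 to 81.1. PRMT1 itself read 461, 468 and 526 in AE9a siPRMT1 cells against 794, 817 and 695 in AE9a controls, a fall of 0.61 ± 0.16 (log2 ± SE; limma, adjusted p = 0.021) that was not called without AE9a siPRMT1 1 or 2 or AE9a control 1 or 2 (largest adjusted p = 0.0845). In wild type cells it read 1269.7, 1004 and 902 under siPRMT1 against 1166, 1339 and 1832 under control siRNA, groups that overlap (-0.46 ± 0.16, adjusted p = 0.487). The AE9a line also had less PRMT1 signal than the wild type line, both with siPRMT1 (-1.03 ± 0.16, adjusted p = 0.000253) and with control siRNA (-0.89 ± 0.16, adjusted p = 0.000775). Of 12 K562 and erythroid markers, 11 exceeded this background level on every array. Wild type control 3 stood apart from wild type controls 1 and 2 on the second principal component of all tested probes (-15.8 against 21.9 and 21.7). It lay within the range of wild type siPRMT1 arrays 1 to 3 (-6.5, -0.45 and -18.0). AE9a siPRMT1 3 stood apart from AE9a siPRMT1 1 and 2 (-34.4 against -18.7 and -20.2). AE9a controls lay at 23.8, 22.8 and 23.85, so this component also divided the AE9a groups. Counts of called members are given with and without wild type control 3 and AE9a siPRMT1 3. The labels name no batch.

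In AE9a cells, siPRMT1 was accompanied by lower levels of 19 of the 36 measured genes, and no measured gene of the 36 was called higher. The test was limma's moderated test on log2 intensity with Benjamini-Hochberg adjustment over all 28338 tested probes and a threshold of 0.05. Over all 13929 tested genes, 9.51% were called lower and 7.98% higher, so a larger share of the members than of all genes was called lower. The members were chosen with earlier results of these data known, so this excess is a description and not a test. The median log2 fold change was -0.49 for the members and 0.01 for all tested genes, and 32 of the 36 members lay below zero. On the normalized scale 26 of the 36 members were lower on every AE9a siPRMT1 array than on any AE9a control array, against 22.6% of all tested genes, and 1 was higher on every array, against 21.9%. The falls ran through both arms of the list: 5 of 9 enzymes from aldolase to pyruvate kinase, 4 of 6 phosphofructokinase genes and 7 of 9 other hypoxia targets were called lower. Fewer were called among the glucose uptake and first-step genes (2 of 5), at the fate of pyruvate (1 of 4) and in oxygen sensing (0 of 3). In RNA from whole cultures, fewer cells expressing a gene and less of its RNA per cell cannot be told apart.

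**Figure D1:**
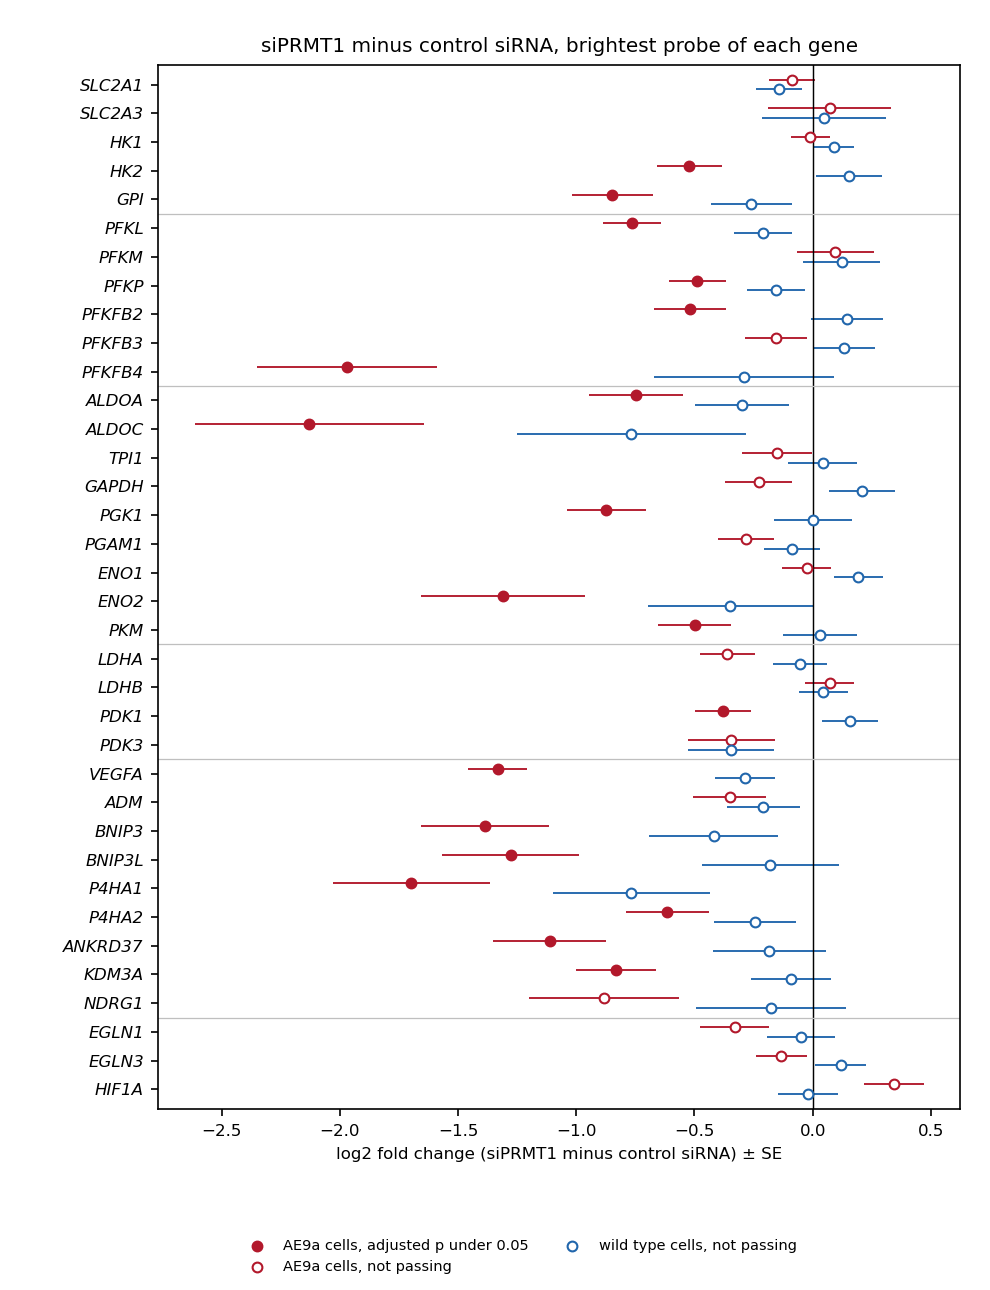
Log2 fold change of siPRMT1 over control siRNA (x axis) for the brightest probe of each of the 36 measured genes (y axis, in pathway order with lines between roles), with bars of 1 standard error, for AE9a cells (red, upper mark) and wild type cells (blue, lower mark). Filled marks passed an adjusted p of 0.05: 19 AE9a marks, all left of zero, and no wild type mark.

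Among the glucose uptake and first-step genes, HK2, the inducible hexokinase, and GPI, which turns glucose phosphate into fructose phosphate, fell in AE9a cells (-0.52 ± 0.14 and -0.85 ± 0.17, log2 ± SE). The glucose transporters SLC2A1 and SLC2A3 and the housekeeping hexokinase HK1 were at -0.09, 0.07 and -0.01 and did not pass. SLC2A1 read 5102, 4573 and 4840.2 in AE9a siPRMT1 cells against 4989, 5325 and 4854 in AE9a controls, and the groups overlapped. The 95% interval of its change ran from -0.30 to 0.12.

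Phosphofructokinase commits sugar to glycolysis, and its liver-type subunit gene PFKL read 364, 281 and 328 in AE9a siPRMT1 cells against 599, 601 and 542 in AE9a controls. The groups did not overlap, and PFKL fell by 0.77 ± 0.12 (log2 ± SE, adjusted p = 0.00129). The platelet-type subunit PFKP fell too (-0.49 ± 0.12), whereas the muscle-type subunit PFKM was at 0.10 ± 0.16 and did not pass. PFKFB4, one of the enzymes that make and remove the sugar bisphosphate that activates phosphofructokinase, read 1031, 874 and 465 against 3037, 2964 and 3006. That is a 3.91-fold lower normalized signal in AE9a siPRMT1 cells (-1.97 ± 0.38, adjusted p = 0.00413), with AE9a siPRMT1 3 the lowest of the 12 arrays. Of its relatives, PFKFB2 fell (-0.52 ± 0.15) and PFKFB3 was at -0.16 and did not pass. A dimmer PFKL probe, not above the olfactory receptor level in either AE9a group, was at 0.04 and did not pass.

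From aldolase to pyruvate kinase, the aldolase ALDOC had the largest change of all members in AE9a cells and is given for that reason, chosen after its values were seen. It read 1522, 1562 and 744 in AE9a siPRMT1 cells against 5242, 5540.5 and 5104 in AE9a controls, a 4.37-fold lower normalized signal (-2.13 ± 0.48, adjusted p = 0.00985). PGK1, the first enzyme of glycolysis to yield ATP, read 6865, 6799 and 5349.7 against 10377, 11550 and 11719. No siPRMT1 array of either gene reached any control array, and PGK1 fell by 0.87 ± 0.17 (adjusted p = 0.00378). A dimmer PGK1 probe missed the threshold at -0.50 (adjusted p = 0.122). The main aldolase ALDOA (-0.75), the enolase ENO2 (-1.31) and pyruvate kinase PKM (-0.50) fell as well. The remaining steps did not pass: TPI1 was at -0.15, GAPDH at -0.23, PGAM1 at -0.28 and ENO1 at -0.03. The enolase pair thus split, with the bright ENO1 (raw signal from 24038 to 27417 on the AE9a arrays) not called and the dimmer ENO2 called, and no test compared the 2 genes with each other.

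At the fate of pyruvate, LDHA, which reduces pyruvate to lactate, read 18590.1, 19625 and 14034 in AE9a siPRMT1 cells against 22504, 23413 and 22791 in AE9a controls. The groups did not overlap, but the brightest LDHA probe missed the threshold (-0.36 ± 0.12, adjusted p = 0.0528), and of its dimmer probes 1 passed (-0.56, adjusted p = 0.017) and 1 did not (-0.20, adjusted p = 0.459). LDHB, the subunit that favours the reverse reaction, was at 0.07. PDK1, a kinase that shuts pyruvate dehydrogenase, fell by 0.38 ± 0.12 at a signal close to background (70.2, 86.3 and 59.5 in AE9a siPRMT1 cells against 122, 93 and 98.3 in AE9a controls), and PDK3 was at -0.34 and did not pass.

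The largest group of falls was that of the other hypoxia target genes. VEGFA, the angiogenic growth factor, read 295, 298 and 233 in AE9a siPRMT1 cells against 739, 743 and 716 in AE9a controls and fell by 1.33 ± 0.13, the smallest adjusted p of the members (adjusted p = 3.82e-05). BNIP3, a mitochondrial protein that marks mitochondria for removal, read 5214, 4165 and 2647 against 9596, 9567 and 10204 (-1.39 ± 0.27, adjusted p = 0.00441). P4HA1, a catalytic subunit of the hydroxylase that matures collagen, read 713, 789.8 and 506 against 2108, 2289 and 2239 (-1.70 ± 0.33, adjusted p = 0.00425). In all 3 genes every siPRMT1 array lay under every AE9a control array, and AE9a siPRMT1 3 was the lowest array of its group. BNIP3L, a relative of BNIP3 (-1.28), the ankyrin-repeat gene ANKRD37 (-1.11), the histone demethylase gene KDM3A (-0.83) and P4HA2, which encodes another catalytic subunit of that hydroxylase (-0.61), fell too. ADM, which encodes a vasodilator peptide, was at -0.35 and the stress-responsive NDRG1 at -0.88 ± 0.32 (adjusted p = 0.0841), and neither passed.

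Of the oxygen sensing genes none passed in AE9a cells. HIF1A, the HIF alpha subunit that is controlled mostly through protein stability, read 273, 322 and 285 in AE9a siPRMT1 cells against 275, 219.9 and 229 in AE9a controls. These raw values overlap, whereas on the normalized scale HIF1A was the member higher on every AE9a siPRMT1 array than on any AE9a control array. Its log2 change was 0.34 ± 0.13 (adjusted p = 0.0943), opposite in sign to most of the targets, while its dimmer probes were at -0.04 and 0.04. EGLN1, the main HIF prolyl hydroxylase, was at -0.33 and EGLN3 at -0.13.

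**Figure D2:**
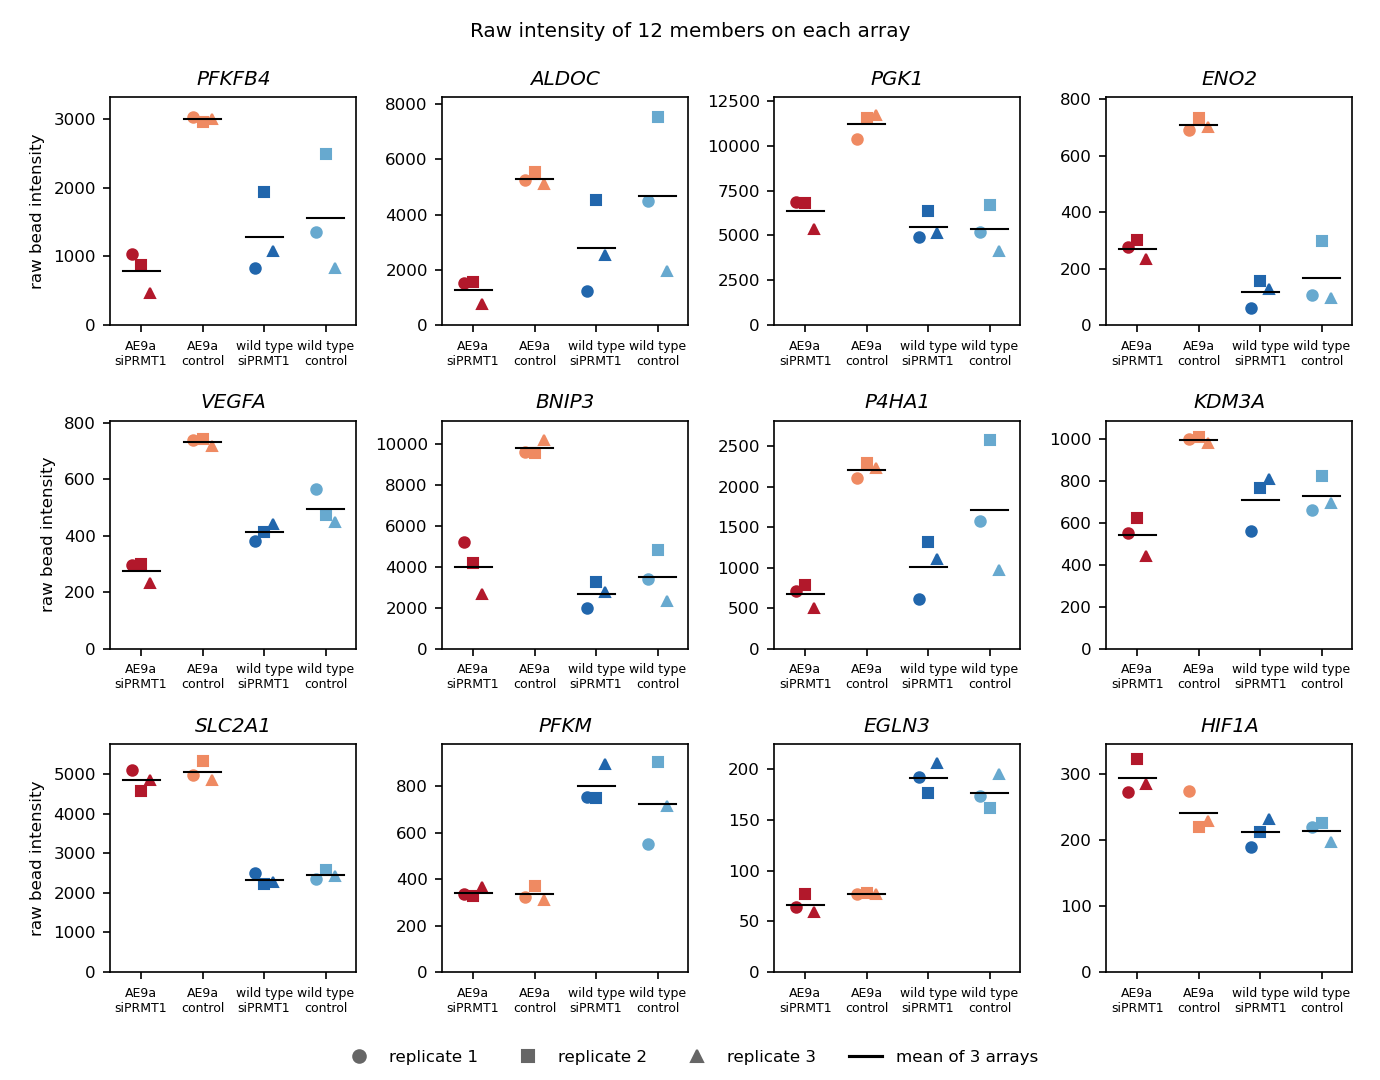
Raw bead intensity (y axis, linear from 0) of 12 members on each of the 12 arrays, by group (x axis), with a mark per array and a line at the mean of 3 arrays. For PFKFB4, ALDOC, PGK1, ENO2, VEGFA, BNIP3, P4HA1 and KDM3A the AE9a siPRMT1 arrays lie under all AE9a controls, and among these 8 the wild type groups overlap except for VEGFA; SLC2A1, PFKM and EGLN3 separate the AE9a line from wild type.

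HIF binds promoters and enhancers at a short core, ACGTG or GCGTG. Promoter windows from 250 bases before to 50 after the transcription start were taken from RefSeq (GRCh38.p14), and 31 of the 36 measured members had one, leaving VEGFA, BNIP3L, PFKFB2, SLC2A3 and NDRG1. Windows of 4 members that fell in AE9a cells (ALDOC, PGK1, BNIP3 and P4HA1) and of 2 that were not called (SLC2A1 and ENO1) are shown to let the 2 kinds be set side by side. Capitals mark each core on either strand (CACGT and CACGC are the reverse strand), and CACGTG, where the core overlaps the E-box bound by other factors, is in capitals whole and counts as a match on each strand.
ALDOC: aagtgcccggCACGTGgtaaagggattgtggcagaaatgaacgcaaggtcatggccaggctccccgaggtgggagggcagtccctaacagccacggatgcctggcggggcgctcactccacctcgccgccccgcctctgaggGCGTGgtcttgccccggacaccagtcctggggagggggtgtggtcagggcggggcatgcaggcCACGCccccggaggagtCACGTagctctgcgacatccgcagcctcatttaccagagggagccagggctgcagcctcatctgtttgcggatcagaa
PGK1: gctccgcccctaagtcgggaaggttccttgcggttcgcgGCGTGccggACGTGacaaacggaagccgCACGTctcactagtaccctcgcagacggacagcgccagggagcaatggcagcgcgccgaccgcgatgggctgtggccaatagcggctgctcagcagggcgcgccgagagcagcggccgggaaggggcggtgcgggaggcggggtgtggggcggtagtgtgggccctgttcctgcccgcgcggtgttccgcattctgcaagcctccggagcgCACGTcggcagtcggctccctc
BNIP3: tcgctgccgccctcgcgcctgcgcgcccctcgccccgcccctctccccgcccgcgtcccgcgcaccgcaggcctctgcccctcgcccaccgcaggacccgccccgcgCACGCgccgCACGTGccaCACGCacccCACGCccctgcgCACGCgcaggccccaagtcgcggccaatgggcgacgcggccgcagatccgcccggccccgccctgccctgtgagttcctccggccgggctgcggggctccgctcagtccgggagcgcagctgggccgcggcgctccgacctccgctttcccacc
P4HA1: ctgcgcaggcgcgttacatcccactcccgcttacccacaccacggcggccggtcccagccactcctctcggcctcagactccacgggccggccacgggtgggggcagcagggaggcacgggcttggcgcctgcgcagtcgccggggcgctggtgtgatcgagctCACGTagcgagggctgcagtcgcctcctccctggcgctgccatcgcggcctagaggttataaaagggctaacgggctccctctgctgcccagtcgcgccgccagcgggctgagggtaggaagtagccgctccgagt
SLC2A1: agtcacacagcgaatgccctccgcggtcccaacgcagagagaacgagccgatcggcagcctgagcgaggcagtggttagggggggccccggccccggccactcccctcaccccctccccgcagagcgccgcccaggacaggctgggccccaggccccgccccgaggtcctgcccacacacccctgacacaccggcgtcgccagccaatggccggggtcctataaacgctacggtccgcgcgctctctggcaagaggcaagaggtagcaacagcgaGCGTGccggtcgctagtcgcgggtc
ENO1: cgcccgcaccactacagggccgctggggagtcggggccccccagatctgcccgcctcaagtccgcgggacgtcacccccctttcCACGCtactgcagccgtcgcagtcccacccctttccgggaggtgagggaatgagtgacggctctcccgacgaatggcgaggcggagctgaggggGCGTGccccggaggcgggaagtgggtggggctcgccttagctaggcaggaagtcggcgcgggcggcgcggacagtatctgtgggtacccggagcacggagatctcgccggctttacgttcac
The positions are chr17:28576846-28577145 (minus strand) for ALDOC, chrX:78103998-78104297 (plus strand) for PGK1, chr10:131981874-131982173 (minus strand) for BNIP3, chr10:73096817-73097116 (minus strand) for P4HA1, chr1:42958819-42959118 (minus strand) for SLC2A1 and chr1:8878637-8878936 (minus strand) for ENO1. The BNIP3 window holds 6 matches and the ALDOC window 5, against 1 in that of SLC2A1 and 2 in that of ENO1, but P4HA1, which fell, also has 1. A match stood in at least 1 window of 28 of the 31 members (90.3%), against 52.4% of the 27305 genes in the table, and in 48.4% of all 35116 windows. Among members with 1 window only, it stood in 17 of 20 (85.0%), against 47.3% of such genes. Members called lower in AE9a cells and members not called held a match to either core at near the same rate, 15 of 16 and 13 of 15. The ACGTG core alone stood in 11 of 16 and 7 of 15, against 24.9% of the genes in the table. Among members with 1 window it stood in 7 of 11 and 3 of 9. These differences were not tested. A match is a stretch of letters in this window, not a measured binding site.

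The calls in AE9a cells differed in how far they rested on single arrays. GPI, PFKL, PFKFB4, PGK1, VEGFA, BNIP3, P4HA1, ANKRD37 and KDM3A, 9 of the 19, were called lower without each of the 12 arrays in turn. The other 10 calls were lost without AE9a siPRMT1 3, where 9 members and 5.43% of all genes were called lower and the members' median was -0.42. Of these 10, ALDOC (adjusted p = 0.0576) and BNIP3L (0.0534) were lost there and without none of the other 11 arrays, and the largest adjusted p of the others ran from 0.0775 for PFKP to 0.202 for PDK1. Without AE9a control 2, and likewise without AE9a control 3, 11 members were called lower, against 5.62% and 5.66% of all genes. Without wild type control 3, 21 were called lower, against 12% of all genes. Of 10 called genes measured by several tested probes, 3 (ALDOA, VEGFA and BNIP3L) had a further probe called lower and 7 did not.

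In wild type cells none of the 36 members passed after siPRMT1, and neither did any of the 13929 genes (0% lower and 0% higher). The smallest adjusted p of a member was 0.545, and 2 members had an unadjusted p under 0.05. P4HA1 read 613, 1316 and 1109.5 in wild type siPRMT1 cells against 1579, 2580.2 and 977 in wild type controls, groups that overlap (-0.77 ± 0.33, adjusted p = 0.545). VEGFA read 381, 412 and 442 against 564, 473 and 449.7, without overlap (-0.29 ± 0.13, adjusted p = 0.549). P4HA1 thus had the larger fold change and VEGFA the separated groups. PDK3 and ENO1, the next by p, pointed opposite ways: PDK3 read 143, 153 and 114 in wild type siPRMT1 cells against 222, 221 and 114 in wild type controls (-0.35 ± 0.18, adjusted p = 0.613). ENO1 read 22879, 24860.2 and 26849 against 20525, 24434 and 22126 (0.19 ± 0.10, adjusted p = 0.618). Both pairs overlapped. Of the genes given by array for AE9a cells, PGK1 read 4920.3, 6362 and 5119 in wild type siPRMT1 cells against 5196, 6672 and 4134 in wild type controls (0.00 ± 0.17, adjusted p = 0.999), with a 95% interval from -0.36 to 0.36. LDHA read 22951, 27728 and 24818 against 24235, 28996 and 25992 (-0.05 ± 0.12) and HIF1A 190, 213 and 232 against 219.6, 226 and 196 (-0.02 ± 0.13). All 3 pairs overlapped. On the normalized scale 3 members were lower and 1 higher on every wild type siPRMT1 array than on any control array, against 5.18% and 4.74% of all tested genes. These were SLC2A1, PFKL and VEGFA (lower) and HK1 (higher). The members' median was -0.09, and it lay above zero without wild type siPRMT1 1 (0.08) or wild type control 2 (0.03) and under median scaling (0.02). Without wild type control 3, PDK3 was called lower (-0.62, adjusted p = 0.0215) in a fit that called 2.22% of all genes lower and 1.77% higher.

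By the median SD, with no test, wild type arrays were more scattered for these genes than AE9a arrays. Over the 36 members it was 0.14 in AE9a siPRMT1 cells, 0.09 in AE9a controls, 0.21 in wild type siPRMT1 cells and 0.24 in wild type controls (log2, n = 3 each). The fit gave all 4 groups a common spread per probe. Standard errors and p-values within 1 line thus also reflect the scatter of the other line. For NDRG1 the SD was 0.25 and 0.12 in AE9a siPRMT1 cells and controls, against 0.69 and 0.63 in the matching wild type groups. ALDOC had the largest SD in 3 of the 4 groups, 0.55 in AE9a siPRMT1 cells, 1.01 in wild type siPRMT1 cells and 1.01 in wild type controls. It read 1246, 4539 and 2539.5 in wild type siPRMT1 cells and 4499, 7523 and 1952 in wild type controls, so replicate 2 was high in both. Wild type siPRMT1 1 was the lowest array of its group for 28 of 36 members, and wild type control 2 the highest of its group for 25. These arrays moved the members together: the mean deviation from the 12-array mean was -0.40 on wild type siPRMT1 1 and 0.25 on wild type control 2, against -0.04 to 0.07 on the other wild type siPRMT1 arrays and -0.15 to -0.12 on the other wild type controls.

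**Figure D3:**
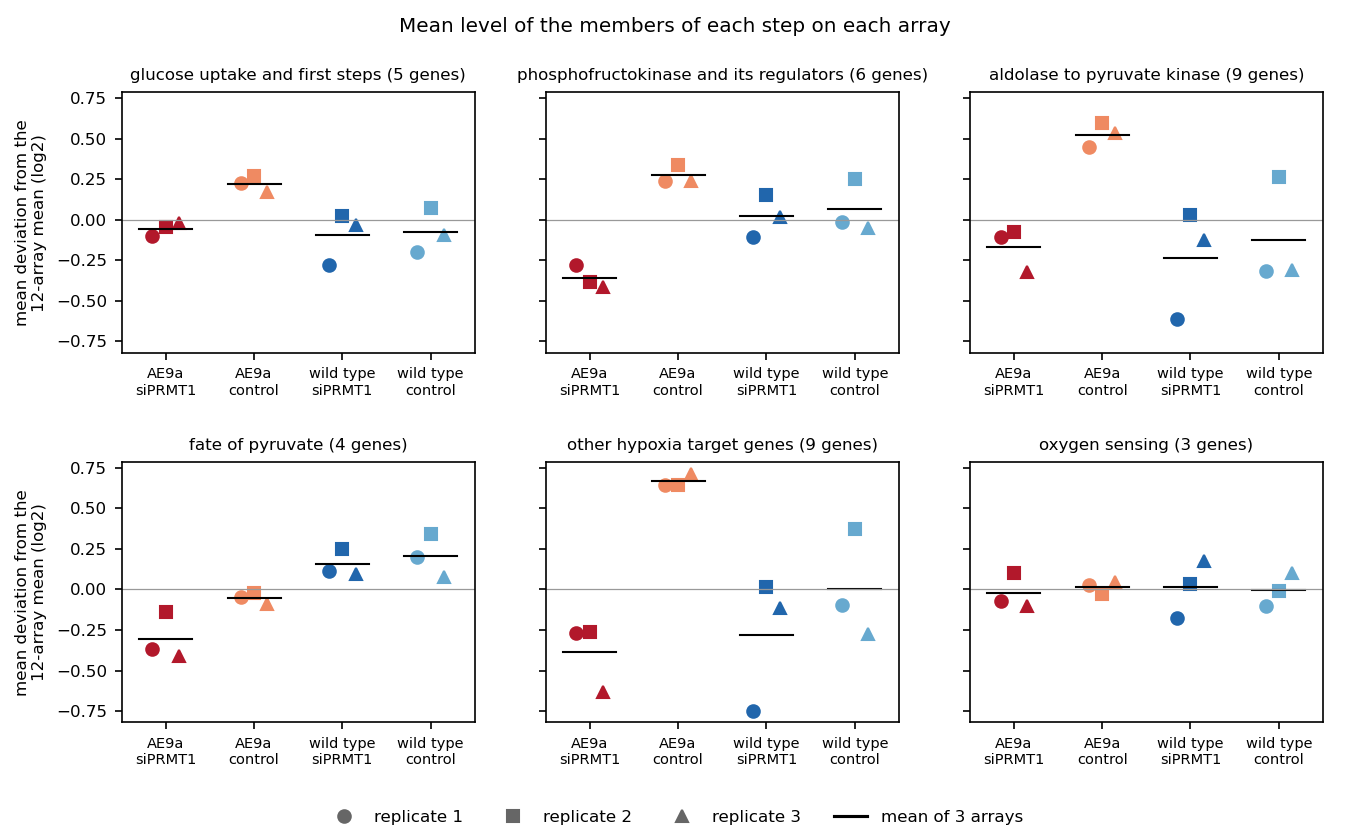
Mean deviation of the members of each role from their own 12-array mean (y axis, log2) on each array, by group (x axis), with a mark per array and a line at the mean of 3 arrays. For the other hypoxia target genes the AE9a siPRMT1 arrays lie at -0.27, -0.26 and -0.63 and the AE9a controls at 0.64, 0.65 and 0.71, while the wild type arrays spread from -0.75 to 0.37.

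The 19 members that fell in AE9a cells had a median of -0.85 there and of -0.21 in wild type cells, and 14 of the 19 were below zero in wild type cells. The 19 were picked by their AE9a values, which tilts any comparison of the lines over them towards larger falls in AE9a cells. All 19 were more negative in AE9a cells, but the difference between the lines itself passed for 1 of the 36 members, VEGFA, against 0.761% of all genes for more negative and 0.388% for more positive effects (1.35% and 0.151% under median scaling). VEGFA differed by -1.05 ± 0.18 (adjusted p = 0.0149). Its call was lost without AE9a siPRMT1 3, AE9a control 2, AE9a control 3 or wild type siPRMT1 2 (largest adjusted p = 0.0562), and its other tested probe was at -0.62 (adjusted p = 0.0715). Without wild type siPRMT1 1, 3 members passed, and without wild type control 2, 2 did, while without wild type control 3 it was VEGFA alone. The share of all genes called in these 3 fits is not set beside these counts, so they are no result about the members. The differences for PGK1 (-0.87 ± 0.24, adjusted p = 0.107), PFKFB4 (-1.68 ± 0.54, adjusted p = 0.181), LDHA (-0.31) and HIF1A (0.36) did not pass. In wild type cells same-numbered siPRMT1 and control arrays deviated together, and with the replicate number as a block in wild type arrays 9 members had a more negative effect in AE9a cells: VEGFA, PGK1, PFKFB4, HK2, KDM3A, PFKFB2, BNIP3L, ENO2 and PDK1 (adjusted p from 0.00515 to 0.0451), against 3.26% of all genes.

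Under control siRNA, AE9a cells had more signal than wild type cells for 15 of the 36 members and less for 3, against 16.3% of all genes higher and 17.1% lower (20% and 11.7% under median scaling, where 18 members were higher and 3 lower). The median was 0.38 for the members and -0.02 for all genes, and 19 members were higher and 6 lower on every AE9a control array than on any wild type control array (22.2% and 23.9% of all genes). SLC2A1, the glucose transporter of red blood cells, read 4989, 5325 and 4854 in AE9a cells against 2358, 2585 and 2424 in wild type cells (1.03 ± 0.10, adjusted p = 2.52e-06). PFKP read 1471, 1484 and 1484 against 788, 663 and 869.9 (0.95 ± 0.12) and its sister subunit PFKM, in the opposite direction, 321, 369 and 312 against 551, 905 and 715 (-1.09 ± 0.16). In none of these 3 genes did the lines overlap, so the phosphofructokinase subunits differed in opposite directions. A dimmer PFKP probe, not above the olfactory receptor level in AE9a controls, missed the threshold at -0.24 (adjusted p = 0.141).

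Below phosphofructokinase, 5 of 9 enzymes were higher in AE9a controls than in wild type controls and 0 were lower. PGK1 read 10377, 11550 and 11719 in AE9a controls against 5196, 6672 and 4134 in wild type controls (1.10 ± 0.17, adjusted p = 0.000203), and its second probe was higher too (1.48, adjusted p = 7.52e-05). ENO2 had the largest difference of the members (2.19 ± 0.35), with 689.6, 735 and 702 in AE9a controls against 107, 298 and 95.7 in wild type controls. TPI1 (0.51), PGAM1 (0.39) and PKM (0.85) were also higher, whereas GAPDH (0.02) and ENO1 (0.19) did not pass. Past pyruvate the pattern was mixed, with PDK1 higher (0.37), PDK3 lower (-0.83) and LDHA (-0.28) and LDHB (-0.29) not called.

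Among the hypoxia targets BNIP3 (1.55), NDRG1 (1.29), BNIP3L (0.95), P4HA2 (0.74) and VEGFA (0.55 ± 0.13, adjusted p = 0.00472) were higher in AE9a controls than in wild type controls. The not called P4HA1 was at 0.46 and PFKFB4, with wide scatter in wild type cells, at 1.07 ± 0.38 (adjusted p = 0.0521). The prolyl hydroxylases parted. EGLN1 read 312, 311 and 339.5 in AE9a controls against 133, 159.7 and 171 in wild type controls (0.99 ± 0.14) and EGLN3 76.8, 78.1 and 77.1 against 173, 162 and 195 (-1.05 ± 0.11, adjusted p = 5.17e-06). Neither pair overlapped, and EGLN3 lay above the olfactory receptor level on 2 of the 3 AE9a control arrays, so its size is uncertain. HIF1A read 275, 219.9 and 229 against 219.6, 226 and 196, groups that overlap (0.12 ± 0.13, adjusted p = 0.546). Of these 18 calls 14 were kept without each array in turn, and TPI1, PGAM1, PDK1 and BNIP3L were lost without at least 1 (largest adjusted p from 0.0828 to 0.122). The count of calls ran from 14 without AE9a control 3 to 20 without wild type siPRMT1 1, counts not set here against a share of all genes. It was 16 without wild type control 3 (3 lower and 13 higher, against 17.1% and 16.8% of all genes).

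Under siPRMT1, AE9a cells had more signal than wild type cells for 5 members and less for 10, against 14.6% of all genes higher and 16.2% lower, with a median of -0.21. On every AE9a siPRMT1 array 7 members were higher and 12 lower than on any wild type siPRMT1 array (21.4% and 24.4% of all genes). SLC2A1 (1.09), PFKP (0.61), ENO2 (1.23) and EGLN1 (0.70) were again higher, as was HIF1A. HIF1A read 273, 322 and 285 in AE9a siPRMT1 cells against 190, 213 and 232 in wild type siPRMT1 cells, without overlap (0.49 ± 0.13, adjusted p = 0.0112). Its dimmer probes, at -0.01 and -0.07, did not pass. EGLN3 read 63.7, 76.5 and 58.9 in AE9a siPRMT1 cells, above the olfactory receptor level on 1 array, against 192, 176 and 206 in wild type siPRMT1 cells (-1.31 ± 0.11). PFKM read 335, 327 and 364 against 755, 748 and 895 (-1.11 ± 0.16), PFKL 364, 281 and 328 against 549, 514 and 559.5 (-0.65 ± 0.12) and LDHA 18590.1, 19625 and 14034 against 22951, 27728 and 24818 (-0.58 ± 0.12). These 4 genes were lower in AE9a cells without overlap, and both dimmer LDHA probes were lower too (-0.90 and -0.73). HK1, PFKFB2, GAPDH, PDK3, VEGFA (-0.50) and ADM were the other members called lower, and the brightest PGK1 probe was at 0.22 ± 0.17 and did not pass, whereas the second PGK1 probe was higher (0.76, adjusted p = 0.0124). P4HA2 likewise missed the threshold by its brightest probe (0.37, adjusted p = 0.146) and passed as higher by its other one (0.54, adjusted p = 0.0326). Calls of 10 members were kept without each array in turn, and those of PFKFB2, GAPDH, ENO2, ADM and HIF1A were lost without at least 1. That of HIF1A was lost without AE9a siPRMT1 2 or wild type siPRMT1 1 (largest adjusted p with 1 array left out 0.057). As the mean of their tested probes, HIF1A (0.14, limma adjusted p = 0.336) and PFKP (0.23, adjusted p = 0.0731) did not pass. Of 9 called genes measured by several tested probes, 2 (LDHA and PDK3) had a further probe called alike and 7 did not. Median scaling, and likewise the submitters' processed values, took away the calls of HK1 and GAPDH. Without AE9a siPRMT1 2, 10 members were called (7 lower and 3 higher, against 12.5% and 11.9% of all genes), and without AE9a siPRMT1 3, 12 were (7 lower and 5 higher, against 13.6% and 11.6%). Without wild type control 3, 10 were lower and 6 higher, against 18.5% and 16.5%. With the replicate number as a block in wild type arrays 23 members were called, 13 lower and 10 higher, against 20.5% and 18% of all genes.

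**Figure D4:**
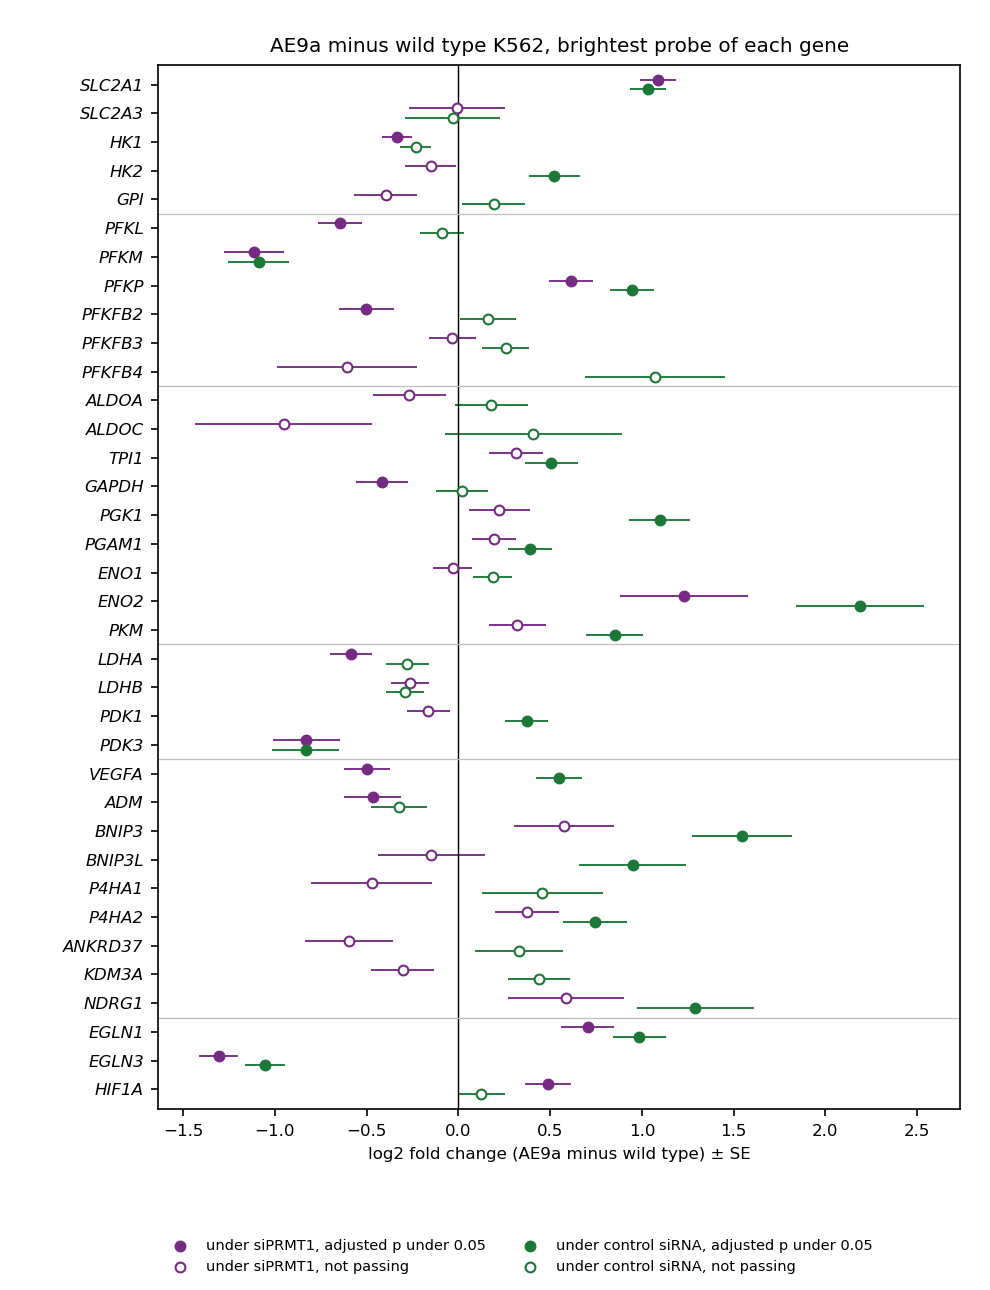
Log2 fold change of AE9a over wild type K562 cells (x axis) for the brightest probe of each of the 36 measured genes (y axis, in pathway order), with bars of 1 standard error, under siPRMT1 (purple, upper mark) and under control siRNA (green, lower mark). Filled marks passed an adjusted p of 0.05: 5 higher and 10 lower under siPRMT1, and 15 higher and 3 lower under control siRNA.

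Reading the 3 contrasts side by side, which share arrays and so are not independent, 7 members fell after siPRMT1 in AE9a cells, were higher in AE9a than in wild type controls and were not called between the lines under siPRMT1, all by their brightest probes. These were HK2, PGK1, PKM, PDK1, BNIP3, BNIP3L and P4HA2. Of them, PGK1 and P4HA2 had a dimmer probe called higher in AE9a cells under siPRMT1. The falls of HK2, PKM, PDK1, BNIP3L and P4HA2 were lost without AE9a siPRMT1 3. The line differences of PDK1 and BNIP3L under control siRNA were lost without at least 1 array. HK2, PGK1, PKM and P4HA2 had no further probe called lower after siPRMT1 in AE9a cells. How many of all tested genes share this pattern is not given here. PFKP and ENO2 fell and were higher than in wild type cells under both siRNAs by their brightest probes. As the mean of its tested probes, PFKP was not called between the lines under siPRMT1. VEGFA was lower in AE9a siPRMT1 cells and higher in AE9a controls than in the matching wild type cells. Its other tested probe was also called higher in AE9a controls but was not called lower under siPRMT1. SLC2A1 and EGLN1 (higher) and PFKM, PDK3 and EGLN3 (lower) differed between the lines under both siRNAs and were not called after siPRMT1. SLC2A3, PFKFB3, ENO1 and LDHB were called in none of the 3. With the replicate number as a block in wild type arrays, PKM, BNIP3 and P4HA2 were called higher in AE9a cells under siPRMT1 too (adjusted p = 0.0361, 0.0436 and 0.0365). Of the 7 this left HK2, PGK1, PDK1 and BNIP3L with that pattern. KDM3A and PFKFB4 took on the pattern in this fit, being called higher in AE9a than in wild type controls (adjusted p = 0.0141 and 0.00246). In the same fit EGLN1, ADM, LDHA and NDRG1 were called lower after siPRMT1 in AE9a cells (adjusted p = 0.0299, 0.0295, 0.0108 and 0.000587). PFKFB3 and LDHB were called between the lines there.

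The lines also differed in K562 and erythroid markers and in markers of other cell types, whose part in these results was not tested. Of 12 K562 and erythroid markers, HBZ, HBE1, TAL1 and ABL1 were higher in AE9a than in wild type cells under control siRNA. TFRC and LMO2 were lower (4 higher and 2 lower, against 16.3% and 17.1% of all genes). The HBZ call was lost without AE9a siPRMT1 3, and those of TFRC and ABL1 without wild type control 3. Under siPRMT1 6 of the 12 were higher and 1 lower, against 14.6% and 16.2%. After siPRMT1 in AE9a cells 3 of 12 K562 and erythroid markers rose (TFRC, LMO2 and BCR), against 7.98% of all genes, and all 3 calls were lost without AE9a siPRMT1 3. None of the 12 tested markers of the lymphoid, granulocyte and monocyte, and fibroblast and epithelial lists was called. Under control siRNA LYZ was higher in AE9a than in wild type cells and CD3D, COL1A2 and EPCAM lower (3 of these 12 lower and 1 higher, against 17.1% and 16.3% of all genes), and the CD3D call was lost without wild type control 3. Under siPRMT1 LYZ and COL1A1 were higher and COL1A2 and EPCAM lower, and the COL1A1 call was lost without AE9a siPRMT1 3. The summed raw level of the granulocyte and monocyte markers ran from 1023 to 1146 in AE9a siPRMT1 cells, 794 to 1072 in AE9a controls, 265 to 301 in wild type siPRMT1 cells and 276 to 372 in wild type controls, while MPO, CSF1R and ELANE lay above the olfactory receptor level on no array. That of the lymphoid markers ran from 911 to 1166 in AE9a siPRMT1 cells, 681 to 733 in AE9a controls, 822 to 3014 in wild type siPRMT1 cells and 1027 to 2274 in wild type controls, with CD3E above that level on no array. That of the fibroblast and epithelial markers ran from 4789 to 5374, 4922 to 5484, 6883 to 9846 and 6625 to 9599 in the same 4 groups, with DCN above it on no array. The K562 and erythroid sum ran from 132963 to 137024, 134208 to 143097, 98265.5 to 103513 and 101450 to 107254 in these groups. A few bright genes weighed most in the higher sums of the other lists. The highest raw value was 927.9 for LYZ against 121.2 for CD14, and 2874.3 for CD3D against 94.4 for CD79A. It was 6373.4 for EPCAM and 2702.7 for KRT19.

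Other genes of the pathway were read from lists chosen with earlier results known, and their counts stand against the 9.51% of all genes called lower and 7.98% called higher in AE9a cells. In AE9a cells after siPRMT1, 8 of 25 further HIF target genes were called lower and 0 higher (median -0.16), led by DDIT4, an inhibitor of mTORC1 (-2.32), PPP1R3C, a glycogen-targeting phosphatase subunit (-1.02), ANKZF1 (-0.87) and STC2, a secreted glycoprotein (-0.83). DDIT4 read 3131, 2675 and 2190.1 in AE9a siPRMT1 cells against 12827, 13381 and 12782 in AE9a controls, without overlap. Of 13 genes of the hypoxia sensing machinery, among them VHL and ARNT, none passed (median 0.15, smallest adjusted p 0.0586, 2 with an unadjusted p under 0.05), but without wild type control 3 ARNT was called lower and ELOC higher, in a fit that called 12% of all genes lower and 10.7% higher. Of 9 regulators of glycolytic transcription outside HIF 4 fell: the glucose-sensing factor MLXIPL (-1.13), its targets TXNIP (-0.82) and ARRDC4 (-0.51), which limit glucose uptake, and FOXO3 (-0.53). Of 9 further isoenzymes and side-branch genes the gluconeogenic PCK2 fell (-1.36) and TIGAR, a sugar bisphosphatase, rose (0.58). Of 8 pentose phosphate genes PGD (-0.41) and PGLS (-0.41) fell and RPIA rose (0.64). None of 12 genes of pyruvate entry into mitochondria passed (smallest adjusted p 0.158, 1 with an unadjusted p under 0.05). In wild type cells no gene of these 6 lists passed on all 12 arrays, and without wild type control 3 ANKZF1, NARF, PGLS and PDK4 were called lower, where 2.22% of all genes were. Between the lines 2 genes differed in their siPRMT1 effect, DDIT4 (-2.75) and PCK2 (-1.41). Without AE9a siPRMT1 3, 5 of the 25 further HIF targets were called lower (5.43% of all genes), the 4 named above among them, the calls of FOXO3, TIGAR, PGD and PGLS were lost, and so was the difference for PCK2.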

How the data were processed

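RNA from 12 K562 samples was labelled as biotin cRNA and hybridised to Illumina BeadChips. The authors deposited a raw intensity and a detection p-value per probe; background subtraction and summary settings are not given in the sources used here. GenomeStudio is named in the submitters' processing notes, without a version or role. The deposited series matrix, intensity on a linear scale with array medians from 65.5 to 65.8, was used as an alternative, since each of its 12 columns matched its own raw column best (rank correlation at least 0.999). The detection p-values were not used.

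Raw intensities were corrected with normexp (offset 50), log2-transformed and quantile-normalized in limma 3.58.1 (R 4.3.3), and probes with a mean above the 40th percentile were tested, 28338 of 47231. One mean per group was fitted over all 12 arrays (lmFit, eBayes with trend, 13.8 degrees of freedom), with 5 two-sided contrasts, each adjusted by Benjamini-Hochberg over all tested probes. The offset makes fold changes of dim genes too small. Values are levels of a probe and were not compared between genes. Of all probes 30113 had 1 gene symbol, 8 several and 17110 none in the platform annotation, and no symbol changed through its gene identifier. Tables were handled in pandas 2.3.3, and the fit was tested on simulated data. The number of arrays limits the precision.

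The members and all lists were chosen with earlier results of these data known. Values on every array were given for PRMT1, HIF1A, VEGFA, PGK1, LDHA and, per contrast, up to 6 called members with the smallest adjusted p (4 by smallest p where none was called). Of other lists at most 4 called genes per contrast were named, again by smallest adjusted p. ALDOC, the other members given by array, the promoters printed and the 12 genes plotted were chosen after their values were seen. Labels give the groups the same replicate numbers. Deviations of same-numbered siPRMT1 and control arrays correlated at 0.578, 0.283 and 0.536 in wild type cells, which by the rule of every pair above 0.1 pairs them, and at -0.203, -0.296 and 0.000655 in AE9a cells, which does not. Alternatives covered background correction, normalization, the filter, probe choice, array weights, the eBayes trend, the replicate block, the arrays in the fit and each array left out.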

Additional observations from a re-analysis of the deposited data

Results flagged for a closer look

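In the fit without a replicate block, VEGFA was the one member whose siPRMT1 effect differed between the lines by a test of the difference itself. With the replicate number as a block in wild type arrays, further members passed beside VEGFA, among them PGK1 and PFKFB4 (limma, adjusted p = 0.00541 and 0.0122). The log2 fold change was -1.33 in AE9a cells and -0.29 in wild type cells, a difference of -1.05 ± 0.18 (SE; limma, adjusted p = 0.0149). VEGFA was lower on all 3 siPRMT1 arrays than on any control array in both lines. Over its alternatives the adjusted p reached 0.0562 at most, and its second tested probe differed by -0.62 (adjusted p = 0.0715).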

How the results depend on the processing

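All alternatives were planned, none was added later, and all were run. The count of members called after siPRMT1 was 19 in AE9a cells and ran from 17 to 25 over the alternatives that kept all 12 arrays or all arrays of the contrast, and from 9 to 21 with 1 array left out. In wild type cells it was 0 throughout except with 1 array left out (0 to 1). The difference between the lines was called for 1 member, for 0 to 3 with 1 array left out, for 2 with the replicate block over all 4 groups and for 9 with the replicate block in wild type arrays only. Between the lines under control siRNA the count of 18 ran from 17 to 25, and from 14 to 20 with 1 array left out. Under siPRMT1 the count of 15 ran from 10 to 16 with 1 array left out and was 23 with the replicate block in wild type arrays only. The block changed no other count by more than 1.5 times. These counts and ranges are not set here against the share of all genes called in each fit. In wild type cells 3 uncalled values near zero changed sign. HIF1A, at -0.02, was at 0.052 under median scaling, 0.084 as the mean of its probes, 0.090 without wild type siPRMT1 1 and 0.012 without wild type control 2 (range with 1 array left out -0.10 to 0.090). LDHA, at -0.05, was at 0.049 under median scaling, 0.010 without wild type siPRMT1 1 and 0.013 without wild type control 2 (-0.17 to 0.013). PGK1, at 0.00, was at -0.000807 from the submitters' values, -0.047 with array weights, and -0.15, -0.013 and -0.17 without wild type siPRMT1 2, wild type control 1 or wild type control 3 (-0.17 to 0.19). The causes were not tested. In AE9a cells LDHA, at an adjusted p of 0.0528, passed under 12 alternatives, and HIF1A (0.0943) passed as higher with array weights (0.0112) and in the fit of AE9a arrays alone (0.041). Signals near background limit PDK1, PDK3, EGLN3 and ENO2.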

Other observations

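Between the lines, genes around glycolysis outside the 39 members were called in both directions, and their counts stand against 17.1% of all genes lower and 16.3% higher under control siRNA, and 16.2% lower and 14.6% higher under siPRMT1. Under control siRNA the alternative HIF alpha subunit EPAS1 had less signal in AE9a cells (-1.66) and the HIF ubiquitin ligase subunit VHL more (0.99) than in wild type cells, with 3 lower and 2 higher of 13 hypoxia sensing genes. Without wild type control 3 the lower ones were 5 (ARNT, CITED2, ELOB, ELOC and EPAS1). Of 25 further HIF targets 6 were lower, with STC2 at -2.29, and 4 higher. Of 9 isoenzymes and side-branch genes 4 were higher, with the muscle enolase ENO3 at 1.57, the red cell pyruvate kinase PKLR at 0.95 and BPGM, which makes the red cell bisphosphoglycerate, at 0.61, and none was lower. Of 8 pentose phosphate genes 3 were lower, with RPIA at -1.46, and 2 higher. Of 12 genes of pyruvate entry into mitochondria PDK4 and PDHX were lower and PDHA1 higher. PDK4 was not above background in AE9a cells and was at least 3.28-fold lower there, taken as the wild type mean over the higher of the PDK4 signal and the olfactory receptor level on each AE9a array. Of 9 other regulators MYC, which drives glycolytic genes, was lower (-1.19), as was MLX, and FOXO3 higher (0.80).

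Under siPRMT1, AE9a cells had 3 lower and 1 higher of the 13 hypoxia sensing genes than wild type cells, 8 lower and 2 higher of the 25 HIF targets, 1 lower (PCK2, -1.79) and 4 higher of the 9 isoenzyme genes, 4 lower and 1 higher of the 8 pentose phosphate genes, 3 lower and 1 higher of the 12 pyruvate entry genes, and 2 lower (MYC at -1.04 and ARRDC4 at -0.99) of the 9 regulators. Without AE9a siPRMT1 3, 3 and 0 of the hypoxia sensing genes, 3 and 1 of the pentose phosphate genes and 2 and 1 of the pyruvate entry genes were lower and higher, and without wild type control 3, 3 regulators were lower. Both contrasts share arrays with the siPRMT1 effects.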
